A study of Mus musculus with 4 samples.

Results

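The 8 genes described here, Abcd2, Abcd3, Acox2, Acox3, Ehhadh, Hsd17b4, Acaa1a and Pecr, encode transporters and enzymes of fatty acid metabolism in peroxisomes. All but Pecr, a reductase of chain elongation, serve fatty acid oxidation. Counts, medians and sums over the 8 peroxisomal beta-oxidation genes include Pecr. The 8 genes were taken by name from 23337 listed gene symbols, and all 8 were found. Their mRNA was measured by RNA-seq in the hearts of C57BL6/J mice. The control mice carried floxed alleles of PIMT (PIMT fl/fl), and the csPIMT-/- mice carried the same alleles together with a Cre transgene driven by the α-myosin heavy chain promoter, which removes exons 3 and 4 of PIMT (gene symbol Tgs1), an RNA cap methyltransferase and coactivator binding protein, in cardiomyocytes from late gestation onward. Cells other than cardiomyocytes keep the gene, the labels do not say that the controls carried Cre, and none of the mice was treated. There were 4 groups, each genotype at 2 and at 6 months of age, and each group was 1 library made from the pooled heart RNA of 5 mice, male and female. The spread between mice therefore cannot be seen, and ratios at a given age have no replicate check.

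Peroxisomes shorten very long chain, branched chain and dicarboxylic fatty acids that mitochondria take up poorly. ABC transporters of the D family bring the acyl-CoAs in, acyl-CoA oxidases carry out the first step and release hydrogen peroxide, a multifunctional protein hydrates and dehydrogenates the product, and a thiolase removes acetyl-CoA. In liver, several of these genes are classical targets of the nuclear receptor PPARα, whereas in the heart most fatty acid is burned by mitochondria.

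The depth of the 4 libraries was 39854713 reads in the control and 29823073 in the csPIMT-/- library at 2 months, and 40705783 and 36172093 at 6 months. Tgs1, which checks the labels, was at 580 and 816 normalized counts in the controls of 2 and 6 months and at 160 and 162 in the csPIMT-/- libraries. All 7 cardiomyocyte markers were present in every library, and their summed level in csPIMT-/- hearts was 1.04 times that of the control at 2 months and 0.875 times at 6 months. Other tissues differed more between libraries. The summed level of 5 white fat markers was 10.4 in the control of 2 months, 12522 in the csPIMT-/- library of 2 months, 2880 in the control of 6 months and 2136 in the csPIMT-/- library of 6 months. The summed level of 4 atrial markers was 2650, 132399, 46627 and 29139 in the same order. The summed level of 6 lung markers was 1.73 in the control of 2 months, where 5 of them were at 0, and 1169 in the csPIMT-/- library, and 10.6 and 18.7 at 6 months. Summed macrophage and leukocyte markers were 3.02 times the control at 2 months and 1.47 times at 6 months, erythroid markers (of which 3 of 4 were listed at 0 in every library) 0.604 and 4.30 times, and skeletal muscle markers 0.273 and 3.90 times. Transcripts richer in GC had higher csPIMT-/- to control ratios among all genes. Spearman's rho, taken over genes that are not independent replicates, was 0.581 for 2 months and 0.607 for 6 months. In whole hearts, fewer cells of a type and less RNA per cell cannot be told apart.

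Promoter sequences are shown for the 3 genes on which the results turn and for which RefSeq windows (GRCm38.p6) were at hand. Each window runs from 250 bases before the annotated start site to 50 bases after it, 5′ to 3′ on the strand of the gene. Capitals mark CCAAT and GGGCGG, the letters searched for as the CCAAT box and the GC box, on the printed strand or, as ATTGG and CCGCCC, on the other. The Ehhadh window lies at chr16:21787785-21788084 on the minus strand, the Acaa1a window at chr9:119341044-119341343 on the plus strand and the Abcd3 window at chr3:121815253-121815552 on the minus strand.
Ehhadh: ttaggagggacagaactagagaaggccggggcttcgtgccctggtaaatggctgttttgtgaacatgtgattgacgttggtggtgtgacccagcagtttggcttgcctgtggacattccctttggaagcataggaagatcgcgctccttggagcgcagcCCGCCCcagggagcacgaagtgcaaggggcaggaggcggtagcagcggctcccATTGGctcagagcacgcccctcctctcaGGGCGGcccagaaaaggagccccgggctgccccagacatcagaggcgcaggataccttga
Acaa1a: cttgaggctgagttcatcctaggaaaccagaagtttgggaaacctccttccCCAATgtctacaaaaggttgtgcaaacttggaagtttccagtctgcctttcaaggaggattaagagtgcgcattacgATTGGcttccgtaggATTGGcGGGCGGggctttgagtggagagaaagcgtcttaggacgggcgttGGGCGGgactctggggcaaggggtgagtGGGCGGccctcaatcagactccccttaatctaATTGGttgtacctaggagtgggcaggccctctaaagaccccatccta
Abcd3: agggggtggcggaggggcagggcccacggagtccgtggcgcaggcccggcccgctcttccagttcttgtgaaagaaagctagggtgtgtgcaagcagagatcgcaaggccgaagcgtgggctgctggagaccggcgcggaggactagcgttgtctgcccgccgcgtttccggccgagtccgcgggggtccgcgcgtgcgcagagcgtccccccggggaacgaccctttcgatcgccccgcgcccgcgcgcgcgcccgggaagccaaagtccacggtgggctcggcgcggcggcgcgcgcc
The Ehhadh window held 1 CCAAT box and 2 GC boxes, and the Acaa1a window held 4 and 3. The Abcd3 window held neither, with a GC content of 73.7% and 45 CpG pairs. For comparison, 37.4% of the 32851 promoter windows of the same length held the letters of the CCAAT box and 35.7% those of the GC box. AGGTCA, the hexamer to which nuclear receptors bind, is in 16.3% of all windows and its direct repeat AGGTCANAGGTCA in 0.0396%, on either strand. Windows were examined for 6 of the genes (Abcd3, Acox2, Acox3, Ehhadh, Acaa1a and Pecr) and not for the others. None of these 8 windows held AGGTCA. With shares this low and only exact letters searched, the absence does not tell whether a receptor binds at or near these genes. Matches to different motifs did not overlap in these windows.

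The 8 genes did not move together. Measured against the control of the same age, Ehhadh, Acox2 and Acaa1a were more than 2-fold higher and Abcd3 more than 2-fold lower in the csPIMT-/- library of 2 months. At 6 months, Acox2 was again more than 2-fold higher, whereas Abcd2 and Abcd3 were more than 2-fold lower. All 8 genes had at least 10 reads in 1 of the libraries compared, the minimum set for a ratio, at both ages. Of all genes compared, 22.3% were below 0.5-fold and 17.2% above 2-fold at 2 months, and 24.8% were below 0.5-fold and 16.8% above 2-fold at 6 months. Against these shares, 1 of the 8 genes was below and 3 were above at 2 months, and 2 were below and 1 above at 6 months. The median log2 ratio of the 8 genes was 0.39 at 2 months and -0.20 at 6 months, and that of all genes compared was -0.00080 and 0.0038. The csPIMT-/- libraries of both ages lay below both controls for Abcd2, Abcd3 and Hsd17b4 and above both controls for Acox2 and Acaa1a, and the groups overlapped for Acox3, Ehhadh and Pecr. Among all genes, 36.0% lay below and 34.9% above in this way. Abcd3 was below 0.5-fold and Acox2 above 2-fold at both ages, as were 15.9% and 7.67% of all genes.

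**Figure D1:**
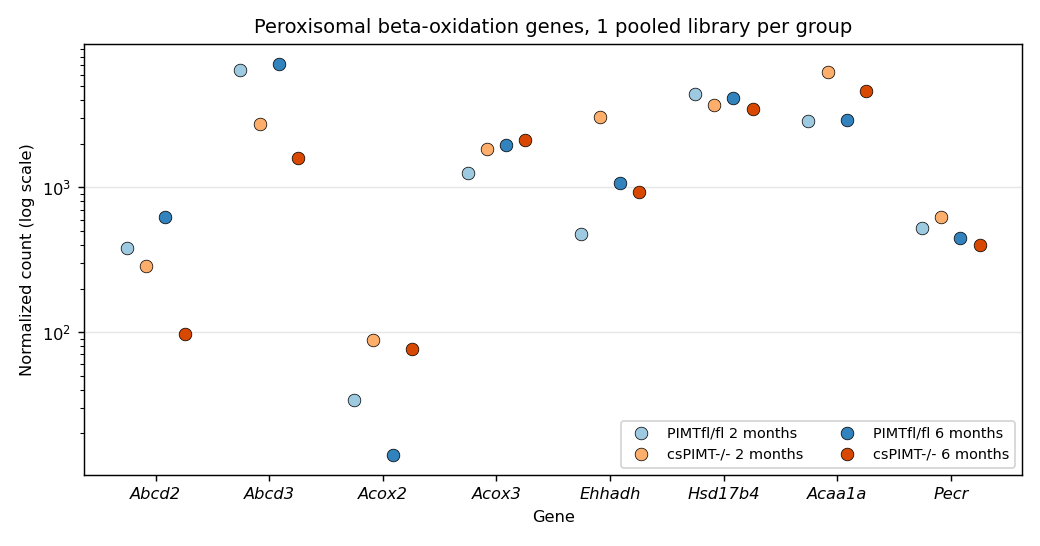
Normalized counts (log scale) of the 8 peroxisomal beta-oxidation genes, with 1 point per library. Abcd3 is at 6466 and 7185 in the controls and at 2760.5 and 1585.5 in the csPIMT-/- libraries, and Ehhadh stands at 3085 in the csPIMT-/- library of 2 months alone.

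Over both ages, limma (genotype and age as terms, 14935 genes, Benjamini-Hochberg adjusted p) called 1 of the 8 genes lower and 1 higher in csPIMT-/- hearts. Abcd3 fell and Acaa1a rose. Of all genes tested, 18.8% were called lower and 12.4% higher, so the count among the 8 is close to that background. The median difference of the 8 genes was 0.17 on the log2 scale, against 0.03 over all genes tested. With 4 libraries and 3 coefficients, only 1 degree of freedom remains, so whatever does not add up between age and genotype is taken as the replicate error. With the GC trend subtracted, limma called 0 of all genes, and 3502 had an unadjusted p under 0.05. The subtraction also shrank the limma difference of Tgs1, the deleted gene. That difference went from -2.09 (adjusted p = 0.0109) to -0.87 (adjusted p = 0.166).

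The transporters come first in the pathway. Abcd3 (PMP70), an abundant protein of the peroxisomal membrane and a carrier of branched chain and dicarboxylic acyl-CoAs, lies at chr3:121758774-121815302 on the minus strand (GRCm38) and has 23 exons in its longest transcript. It was at 6466 normalized counts in the control and 2760.5 in the csPIMT-/- library at 2 months, and at 7185 and 1585.5 at 6 months. Both csPIMT-/- libraries were well below both controls, and the lower of them was that of 6 months. The ratio was 0.427 (95% interval of counting noise 0.407 to 0.448) at 2 months and 0.221 (0.209 to 0.233) at 6 months, while the control of 6 months was at 1.11 times the control of 2 months. The limma difference was -1.71 on the log2 scale (SE 0.289, adjusted p = 0.0124). Without the control of 6 months the adjusted p was 0.0710. With the GC trend subtracted the difference was -0.86 (adjusted p = 0.153), and the ratios were 0.719 and 0.414.

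Abcd2 (ALDRP), which carries very long chain and polyunsaturated acyl-CoAs, lies at chr15:91145871-91191799 on the minus strand. It was at 381 normalized counts in the control and 285 in the csPIMT-/- library at 2 months, and at 627 and 96.8 at 6 months. The csPIMT-/- library of 6 months stood apart as the lowest of the 4, and the control of 6 months was the highest. The ratio was 0.748 (0.635 to 0.879) at 2 months and 0.154 (0.123 to 0.192) at 6 months. At 6 months 3.04% of the genes compared had a lower ratio. The difference over both ages did not pass the limma threshold at -1.56 on the log2 scale (SE 0.575, adjusted p = 0.0852). It passed in DESeq2 (adjusted p = 0.0174). With libraries left out in turn, the limma difference ran from -2.36 to -0.76. With the GC trend subtracted it was -0.29 (adjusted p = 0.774). Abcd2 has the lowest transcript GC content of the 8 genes, 41.6%, and with the GC trend subtracted its ratios were 1.66 at 2 months and 0.393 at 6 months. The direction at 2 months thus depended on that subtraction.

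The acyl-CoA oxidases carry out the first step. Acox2, the oxidase of bile acid intermediates and branched chain acyl-CoAs, lies at chr14:8225511-8259353 on the minus strand and was the least expressed of the 8 genes by its deposited counts. It was at 33.7 normalized counts (39 reads) in the control and 88.8 (72 reads) in the csPIMT-/- library at 2 months, and at 14.1 (16 reads) and 75.9 (73 reads) at 6 months. Both csPIMT-/- libraries were above both controls at every pairing, and the controls themselves differed, at 0.417 (0.218 to 0.764) for 6 months over 2 months. The ratio was 2.63 (1.76 to 3.99) at 2 months and 5.40 (3.11 to 9.94) at 6 months. The limma difference of 1.86 on the log2 scale had an SE of 0.602 and did not pass after adjustment (adjusted p = 0.0609). Because Acox2 rests on so few reads, a minimum of 100 reads left it out of the comparisons at both ages.

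Acox3, the other branched chain oxidase, lies at chr5:35583040-35615352 on the plus strand. It was at 1267 normalized counts in the control and 1833 in the csPIMT-/- library at 2 months, and at 1971 and 2124 at 6 months. The control of 6 months was above the csPIMT-/- library of 2 months, so the genotypes overlapped. The ratio was 1.45 (1.35 to 1.56) at 2 months and 1.08 (1.01 to 1.15) at 6 months, and the limma difference was 0.31 (SE 0.239, adjusted p = 0.343). Exons of Acox3 overlap an antisense transcript, 4931431C16Rik, with which 3.69% of its 50-base words are shared, and the strand setting of the read counting is not given in the sources used here.

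**Figure D2:**
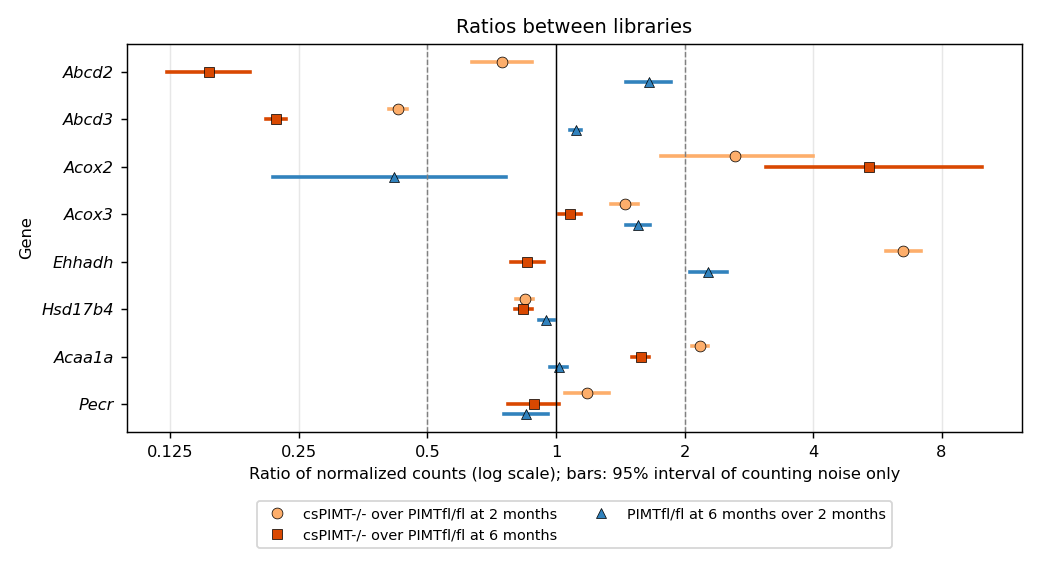
Ratios of normalized counts between libraries (log scale), for csPIMT-/- over control at 2 months (circles) and 6 months (squares) and for the control at 6 over 2 months (triangles), with 95% intervals that cover counting noise only and dashed lines at 0.5 and 2. Ehhadh is at 6.51 at 2 months and 0.857 at 6 months, and the control of 6 months is itself 2.28 times the control of 2 months.

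Ehhadh, the L-bifunctional protein that hydrates and dehydrogenates enoyl-CoAs and a classical PPARα target, lies at chr16:21761287-21787807 on the minus strand, with its promoter printed above. It was at 474 normalized counts in the control and 3085 in the csPIMT-/- library at 2 months, and at 1079 and 925 at 6 months. The csPIMT-/- library of 2 months was alone high, and the csPIMT-/- library of 6 months lay between the 2 controls. The ratio was 6.51 (5.93 to 7.15) at 2 months and 0.857 (0.785 to 0.935) at 6 months, and the first was 7.59 times the second. Of the genes compared at 2 months, 97.2% had a lower ratio. The choice of control mattered, because the controls differed by 2.28 (2.06 to 2.52): against the control of 6 months the csPIMT-/- library of 2 months was at 2.86, and against the control of 2 months the csPIMT-/- library of 6 months was at 1.95. With the GC trend subtracted the ratios were 8.57 and 1.15. Over both ages the limma difference was 1.23 on the log2 scale (SE 0.648, adjusted p = 0.189), and only DESeq2 among the tools run called it (adjusted p = 0.0463). These values are of mRNA. By Western blot, the paper reports less EHHADH protein in csPIMT-/- hearts than in control hearts at both ages.

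The 4 libraries ranked for Ehhadh in the same order as for the summed white fat and atrial markers, lowest in the control of 2 months, then the csPIMT-/- library of 6 months, the control of 6 months and the csPIMT-/- library of 2 months. All 5 white fat markers and all 4 atrial markers were past 2-fold higher in the csPIMT-/- library of 2 months than in its control. Of the 5 white fat markers, 2 were listed at 0 in the control of 2 months and none in the other libraries, and no atrial marker was at 0 in any library. The summed 5 brown fat markers did not rank in that order. They were at 2033 and 4499 normalized counts at 2 months and 1280 and 2884 at 6 months, control before csPIMT-/-. In the controls, Cidea had a mean log2 count of 10.4, against 4.91 for Ucp1 and 7.20 for Dio2. Marker by marker, 3 of 5 were above 2-fold at 2 months and 1 was below 1, with a median ratio of 13.96. At 6 months, 2 of 4 compared were below 0.5-fold and 1 above 2-fold, with a median ratio of 0.601. Between the controls, the median ratio of 6 over 2 months was 3.52. The part of these tissues in the Ehhadh result was not tested.

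**Figure D3:**
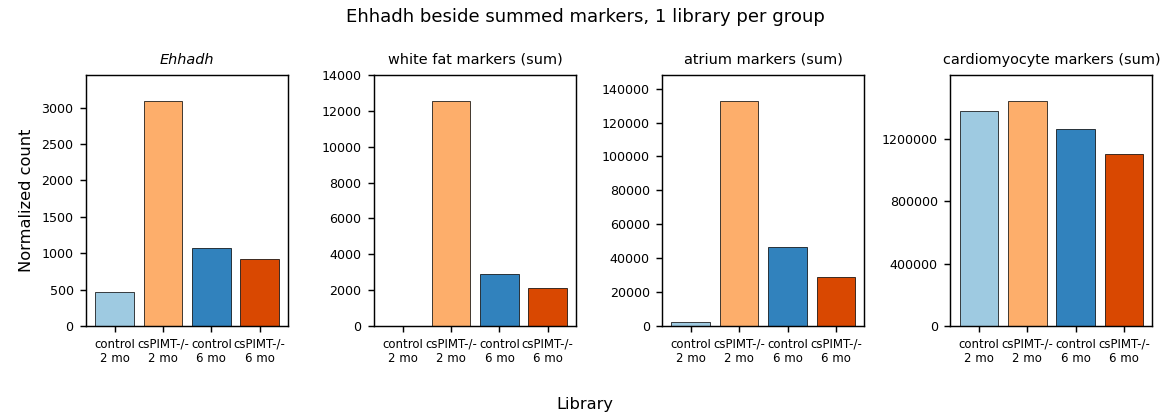
Normalized counts of Ehhadh and summed normalized counts of 5 white fat, 4 atrial and 7 cardiomyocyte markers in each library, each on its own linear axis from 0. Ehhadh, white fat and atrial markers are all highest in the csPIMT-/- library of 2 months, while the summed cardiomyocyte markers there are at 1.04 times the control.

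Hsd17b4, the D-bifunctional protein that carries out the same 2 steps for very long chain and branched chain substrates, lies at chr18:50128201-50196269 on the plus strand. It was at 4410 normalized counts in the control and 3721 in the csPIMT-/- library at 2 months, and at 4182 and 3507 at 6 months. Both csPIMT-/- libraries were below both controls by a small margin, and the ages hardly differed. The ratio was 0.844 (0.806 to 0.883) at 2 months and 0.839 (0.802 to 0.877) at 6 months, and the limma difference of -0.26 did not pass (SE 0.207, adjusted p = 0.372). The 2 bifunctional proteins therefore differed in their ratio at 2 months, at 6.51 for Ehhadh and 0.844 for Hsd17b4, a difference that was not tested with 1 library per group.

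Acaa1a, the peroxisomal 3-ketoacyl-CoA thiolase of the last step, lies at chr9:119339676-119350299 on the plus strand. It was at 2888 normalized counts in the control and 6268 in the csPIMT-/- library at 2 months, and at 2928 and 4626 at 6 months. The controls were nearly equal, at 1.01 (0.966 to 1.06), and both csPIMT-/- libraries were above them. The ratio was 2.17 (2.08 to 2.27) at 2 months and 1.58 (1.51 to 1.65) at 6 months, and the limma difference was 0.88 on the log2 scale (SE 0.230, adjusted p = 0.0343). The call was lost without the control of 2 months (adjusted p = 0.141), without the control of 6 months (0.140) and without the csPIMT-/- library of 2 months (0.0876). Acaa1a has the highest transcript GC content of the 8 genes, 55.3%, and with the GC trend subtracted its ratios were 1.44 and 1.04 and its difference was 0.30 (adjusted p = 0.424). Its counts are also uncertain because 16.2% of its 50-base words occur in other genes, first among them its near copy Acaa1b, and because its exons overlap Myd88 on the opposite strand. Of the 50-base words of Acaa1b, in its shorter longest transcript, 46.2% occur in other genes, first among them Acaa1a. Acaa1b was at 81.3 and 815 normalized counts at 2 months and at 112 and 163 at 6 months, a ratio of 10.02 and 1.46.

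Pecr, a trans-2-enoyl-CoA reductase of peroxisomes that works in chain elongation, lies at chr1:72259167-72284314 on the minus strand and overlaps the noncoding gene D230017M19Rik on the opposite strand. It was at 527 normalized counts in the control and 623 in the csPIMT-/- library at 2 months, and at 449 and 397 at 6 months. Its highest and its lowest value were both in csPIMT-/- libraries. The ratio was 1.18 (1.05 to 1.33) at 2 months and 0.886 (0.774 to 1.01) at 6 months, so that at 6 months it did not differ from 1 beyond counting noise, and the limma difference was 0.03 (SE 0.30, adjusted p = 0.951).

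**Figure D4:**
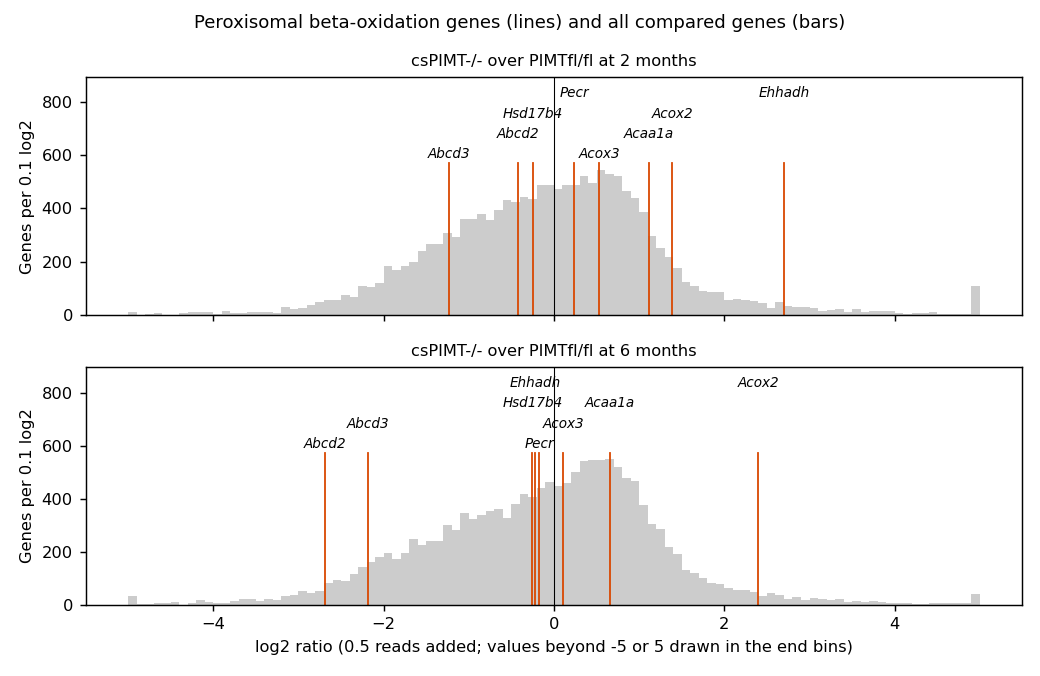
Log2 ratio of csPIMT-/- over control at each age for all genes compared (grey bars, genes per 0.1 log2) and for the 8 peroxisomal beta-oxidation genes (orange lines). Ehhadh at 2 months lies above 97.2% of genes, and at 6 months Abcd2 lies above 3.04% and Acox2 above 97.1% of genes.

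Per kilobase of the longest transcript, the order of the 8 genes differed between genotypes. In both controls Abcd3 was first, at 1853 and 2059 normalized counts per kilobase, followed by Hsd17b4 at 1643 and 1558 and Acaa1a at 787 and 798. In the csPIMT-/- library of 2 months the order was Acaa1a at 1709, Hsd17b4 at 1386, Ehhadh at 1035 and Abcd3 at 791. In that of 6 months it was Hsd17b4 at 1307, Acaa1a at 1261, Acox3 at 534 and Abcd3 at 454. Acox2 and Abcd2 held the last places throughout, between 4.84 and 113 normalized counts per kilobase. With 1 library per group the spread of these levels is unknown, and neighbours as close as Hsd17b4 and Acaa1a in the csPIMT-/- library of 6 months cannot be ordered beyond it. Summed over the 8 genes, the normalized counts were 16447 in the control and 18664 in the csPIMT-/- library at 2 months, and 18435 and 13338 at 6 months.

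Between the ages of the control, Ehhadh was above 2-fold and Acox2 below 0.5-fold at 6 months against 2 months, where 8.77% and 4.63% of all genes compared passed these folds. Abcd2 was at 1.647 (1.46 to 1.86) and Acox3 at 1.56 (1.46 to 1.66). The other 4 genes were between 0.851 and 1.11. These ratios share the control libraries with the genotype ratios.

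Acox2 had the largest limma difference of the 8 genes in absolute size, and the genes whose centred log2 profile over the 4 libraries was nearest to it, among 12049 genes with a mean of at least 100 normalized counts, were Tmem158 (Euclidean distance 0.261), 5730408K05Rik (0.265) and Vaultrc5 (0.309). Tmem158 was at 121, 277, 57.2 and 239 normalized counts in the control and csPIMT-/- libraries of 2 months and those of 6 months.

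The other peroxisomal genes of fatty acid oxidation were also mixed. Of 26 listed genes, 25 could be compared, of which 1 was below 0.5-fold and 5 were above 2-fold at 2 months, and 6 were below and none was above at 6 months. Among all genes, 22.3% were below and 17.2% above at 2 months, and 24.8% and 16.8% at 6 months, so the count below at 6 months is near the background. In limma, where 18.8% of all genes were lower and 12.4% higher, 2 were lower and 1 was higher: Acbd5, which tethers peroxisomes to the endoplasmic reticulum, fell by 1.90 on the log2 scale (SE 0.264, adjusted p = 0.00877), Crot, which exports medium chain products as carnitine esters, fell by 1.30 (SE 0.30, adjusted p = 0.0249), and Tysnd1, the protease that processes peroxisomal enzymes, rose by 1.10 (SE 0.262, adjusted p = 0.0271). Crot and Tysnd1 were named after their values were seen. All 3 calls were lost without the control of 6 months (adjusted p = 0.0818 to 0.157), those of Crot and Tysnd1 also without the control of 2 months (0.0687 and 0.117), that of Crot without the csPIMT-/- library of 6 months (0.0621) and that of Tysnd1 without that of 2 months (0.108). The differences with the GC trend subtracted were -0.51 for Acbd5, -0.39 for Crot and 0.30 for Tysnd1. Scp2, which holds the thiolase for branched chains, was at 0.829 (0.789 to 0.870) at 2 months and 0.510 (0.489 to 0.532) at 6 months. It did not pass in limma (adjusted p = 0.108).

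**Figure D5:**
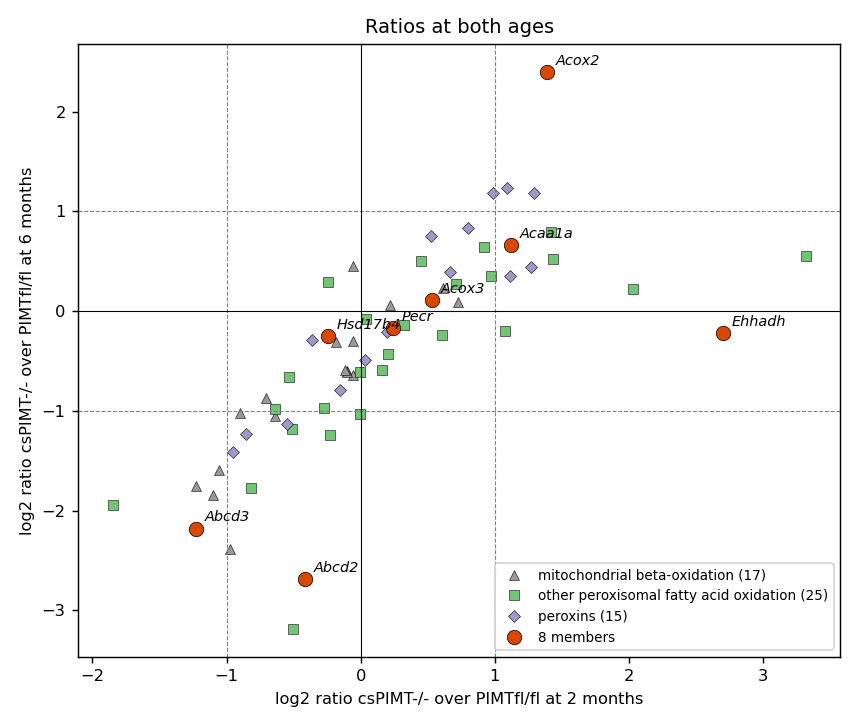
Log2 ratio of csPIMT-/- over control at 2 months (x axis) and at 6 months (y axis) for the 8 genes (named circles), 25 other peroxisomal fatty acid oxidation genes (squares), 15 peroxins (diamonds) and 17 mitochondrial beta-oxidation genes (triangles), with dashed lines at 2-fold. Abcd3 lies low at both ages beside mitochondrial genes, Acox2 lies high at both, and Ehhadh lies high at 2 months alone.

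In mitochondrial beta-oxidation, 3 of 17 genes were below 0.5-fold at 2 months and 6 at 6 months, with none above 2-fold at either age, and limma called 6 lower and none higher. Of all genes, 22.3% were below 0.5-fold and 17.2% above 2-fold at 2 months, and 24.8% and 16.8% at 6 months. In limma, 18.8% of all genes were lower and 12.4% higher. Decr1, the reductase for unsaturated chains, fell by 1.68 on the log2 scale (SE 0.364, adjusted p = 0.0213), and Acadm, the medium chain dehydrogenase, fell by 1.48 (SE 0.279, adjusted p = 0.0157). Etfa and Etfdh, which pass the electrons of the dehydrogenases to the respiratory chain, fell by 1.496 (SE 0.237, adjusted p = 0.0108) and 1.33 (SE 0.256, adjusted p = 0.0163). All 6 calls were lost without the control of 6 months (adjusted p = 0.0635 to 0.128), 5 of them without the control of 2 months (0.0528 to 0.249) and 4 without the csPIMT-/- library of 6 months (0.0554 to 0.156). With the GC trend subtracted the differences were -0.83 for Decr1, -1.20 for Acadm, -0.74 for Etfa and -0.37 for Etfdh, and that of Hadhb, another of the 6, turned from -0.80 to 0.74. Among 10 PPAR regulators, 3 were lower and 1 was higher in limma, beside 18.8% and 12.4% of all genes. The coactivators Ppargc1a (-1.55, SE 0.263, adjusted p = 0.0125), Ppargc1b (-0.99, SE 0.262, adjusted p = 0.0352) and Med1 (-0.97, SE 0.212, adjusted p = 0.0215) fell, and the receptor partner Rxrb (0.86, SE 0.213, adjusted p = 0.0299) rose. Ppara itself was at 4585 and 3119 normalized counts at 2 months and 4546 and 2692 at 6 months, with ratios of 0.680 (0.649 to 0.713) and 0.592 (0.565 to 0.621), and did not pass (adjusted p = 0.0595). The 4 calls among the regulators were lost without the control of 6 months (adjusted p = 0.0528 to 0.146) and without that of 2 months (0.0584 to 0.268). The Ppargc1b call was also lost without the csPIMT-/- library of 6 months (0.206) and the Rxrb call without that of 2 months (0.0668). After the GC trend was subtracted the differences were -0.29 for Ppargc1a, -1.69 for Ppargc1b, -0.50 for Med1 and 0.094 for Rxrb.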

How the data were processed

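Polyadenylated RNA was sequenced as single-end directional libraries. The authors trimmed and filtered the reads, aligned them with STAR to mm10, obtained read numbers per gene from htseq-count (HTSeq 0.6.1p1 in the submitters' processing notes) and a UCSC annotation, and used DESeq2. The strand setting of the counting is not given in the sources used here. The deposited signal is 1 normalized count per gene symbol and library. The header of the 6-month csPIMT-/- file calls its values read counts, yet they are not whole and are scaled as in the other files. All values (100%) were whole multiples of the value of 1 read, between 0.865 and 1.23 normalized counts, to within 1e-06 reads, and reads were recovered by division. Median-of-ratios size factors of these reads gave back the authors' scale.

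A ratio is the quotient of 2 deposited normalized counts, given where either library had 10 or more reads. Its 95% Clopper-Pearson interval covers counting error only, since reads carry no molecular identifiers. log2 ratios added 0.5 reads to both counts, and 2-fold (2 or 0.5) was read from them without a p-value. Genotype over both ages was tested with limma 3.58.1 (mean trend, log2 of TMM-scaled value + 1, age as a term, adjusted p below 0.05) on genes at 10 or more in at least 2 libraries and 15 in total. This value scale understates changes of low genes. The recovered reads were also tested with edgeR 4.0.16 (2508 genes lower, 1619 higher) and DESeq2 1.42.0 (2994 and 2201), beside 2801 and 1858 in limma. GC content and coordinates came from the longest transcript of GENCODE M21 (GRCm38), with a GC value for 90.7% of the genes compared at 2 months. A lowess curve (span 0.3) of the log2 ratio on GC content served as the GC trend of the ratios. For the limma differences, the curve was fitted in each library to the log2 values less the mean of each gene. Shared words are 50-base stretches also found in transcripts of other genes. Promoters came from RefSeq (GRCm38.p6).

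The 8 genes and all lists were chosen with earlier results of these data known, so counts over them are descriptions. Named were the 8 genes, Scp2 and the other peroxisomal oxidation genes past 2-fold in the same direction at both ages with a mean of at least 100 normalized counts, up to 4 genes with the largest limma difference from each other list, and Ppara and Ppargc1a. Some genes that meet this rule are not reported here. No sequencing batch or date is given in the labels or methods, so no within-batch value could be had. R 4.3.3 and Python 3.11.15 were used.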

Additional observations from a re-analysis of the deposited data

Results flagged for a closer look

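At the same contrast, 2 of the 8 genes went in opposite directions at the 2 ages, so every csPIMT-/- library of 1 age lay above its control and that of the other age below it. The Ehhadh ratio was 6.51 at 2 months and 0.857 at 6 months, and the Pecr ratio was 1.18 and 0.886. These differences were not tested, since there is 1 library per group. For Ehhadh, the direction at 6 months rested on the processing, since the ratio was 1.15 with the GC trend subtracted and the csPIMT-/- library of 6 months was at 1.95 against the control of 2 months. With the GC trend subtracted, Abcd2 (1.66 and 0.393), Acox3 (1.15 and 0.806) and Pecr (1.14 and 0.809) went opposite ways at the 2 ages and Ehhadh did not. The interval of the Pecr ratio at 6 months, 0.774 to 1.01, includes 1.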

How the results depend on the processing

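The number of genes below 0.5-fold at 2 months was 1, and it was 2 with the control of the other age and 0 with the GC trend subtracted. The number above 2-fold at 2 months was 3, and 2 with the GC trend subtracted or with at least 100 reads. The number above 2-fold at 6 months was 1, and 0 with at least 100 reads. Of all genes at 2 months, 3777 of 15171 were below 0.5-fold with the control of the other age. With the GC trend subtracted, 1570 of 13748 were below 0.5-fold and 2059 above 2-fold at 2 months. With at least 100 reads, 1723 of 12374 were above 2-fold at 2 months and 1860 of 12592 at 6 months. Over both ages, the number called lower was 1 in limma, 2 in DESeq2, 0 without the mean trend, 0 with the GC trend subtracted and 0 to 2 when libraries were left out in turn. The number called higher was 1, with 2 in DESeq2, 0 without the mean trend, 0 with library total scaling, 0 with the GC trend subtracted and 0 to 1 when libraries were left out in turn. Without the mean trend and with the GC trend subtracted, limma called 0 of all genes (5944 and 3502 at an unadjusted p under 0.05), and without the control of 6 months it called 131, against 4659 with all 4 libraries. These causes were not tested. With 1 library left out, the fit had genotype alone, and the lone sample of a group is assumed to vary like the others.

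Directions turned mainly with the GC trend subtracted. Among the 8 genes, 1 log2 ratio turned at 2 months (Abcd2, -0.42 to 0.74) and 2 at 6 months (Ehhadh, -0.22 to 0.20, and Acox3, 0.11 to -0.31). Of 14 peroxins, 5 and 6 turned at the 2 ages, of 25 other peroxisomal oxidation genes 7 and 7, of 17 mitochondrial genes 4 and 4, and of 10 PPAR regulators 1 and 3. Past 2-fold before subtraction, the log2 ratios at 6 months of Pex3, Pex13 and Ppargc1a became 0.41, 0.22 and 0.21. The limma differences were 0.40 for Pex13, -0.044 for Acox3, -0.051 for Pecr, 0.17 for Scp2, 0.74 for Hadhb, 0.55 for Pex3 and -0.020 for Gnpat. With library total scaling they were -0.049 for Pecr and -0.060 for Gnpat. With libraries left out they ran from -0.0026 to 0.63 for Acox3, from -0.32 to 0.37 for Pecr and from -0.18 to 0.21 for Gnpat. Of 112 alternative values of the limma differences of the 8 genes, 94 kept their direction and their side of the threshold, 9 lost a call, 3 gained one and 6 turned direction.

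No paired analysis was possible because the labels carry no replicate numbers, each group is 1 library, and age is already a term of the fit. At 16 reads, the Acox2 level in the control of 6 months is the least precise of the values.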

Other observations

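Genes that build peroxisomes were found on both sides. Of 15 peroxins compared, 4 were above 2-fold and none was below 0.5-fold at 2 months, and 3 were above and 3 below at 6 months. In limma 2 fell and 3 rose. Of all genes, 17.2% were above and 22.3% below at 2 months, 16.8% and 24.8% at 6 months, and 12.4% rose and 18.8% fell in limma, shares near those of the peroxins at 6 months and in limma. Pex13, part of the docking complex for imported enzymes, was at 1265 and 653 normalized counts in the control and csPIMT-/- libraries of 2 months and at 1806 and 677 at 6 months (difference -1.19, SE 0.262, adjusted p = 0.0222), a direction that turned with the GC trend subtracted. Its docking partner Pex14 was at 1155 and 2287 at 2 months and at 1003 and 2271 at 6 months (1.08, SE 0.224, adjusted p = 0.0195). Pex16, a factor of membrane assembly, was at 936 and 2292 at 2 months and at 1091 and 2485 at 6 months (1.23, SE 0.225, adjusted p = 0.0145). Pex11c, of the peroxisome division family, had ratios of 2.13 (1.73 to 2.64) and 2.36 (1.99 to 2.81) and did not pass (adjusted p = 0.0527). The calls of Pex3, Pex13, Pex14 and Pex16 were lost without the control of 6 months (adjusted p = 0.0660 to 0.173) and without that of 2 months (0.0561 to 0.0926), 3 of them without the csPIMT-/- library of 2 months (0.0516 to 0.0633) and 2 without that of 6 months (0.0648 and 0.0743). Pex3 was named after its values were seen, and the difference of Pex3 also turned with the GC trend subtracted (-1.05 and 0.55).

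Of 3 genes compared of ether lipid synthesis, which begins in peroxisomes, 2 were below 0.5-fold at both ages and lower in limma. Of all genes, 15.9% were below 0.5-fold at both ages and 18.8% were lower in limma, and 3 genes are too few to set against these shares. Agps, which makes the ether bond, was at 2952 and 857 normalized counts at 2 months and at 3127 and 840 at 6 months, and fell by 1.85 on the log2 scale (SE 0.224, adjusted p = 0.00828). Far1, which supplies the fatty alcohol, was at 1442 and 370 at 2 months and at 1971 and 410 at 6 months (-2.12, SE 0.262, adjusted p = 0.00828). Gnpat, the acyltransferase of the first step, was at 9449 and 11109 at 2 months and at 9963 and 8743 at 6 months, with a difference of 0.02 (SE 0.232, adjusted p = 0.962). Without the control of 6 months the adjusted p of Agps and Far1 was 0.0562 and 0.0587, and with the GC trend subtracted limma called none of these genes. The differences were then -0.57 for Agps and -0.38 for Far1, and the ratios at 2 and 6 months were 0.653 and 0.688 for Agps, from 0.290 and 0.269, and 0.863 and 0.704 for Far1, from 0.256 and 0.208.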
